A study of Drosophila melanogaster with 2 samples.

Results

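The genes described are those of the large ribosomal subunit of Drosophila melanogaster: every protein-coding gene named RpL or RpLP followed by digits and at most 1 letter in the Ensembl annotation, which gave 46 of 13945 protein-coding genes. For each of them the promoter was searched for summits, the highest points of binding peaks, lying within 500 bp of any of its annotated transcription start sites (TSSs). A summit was found in 34 of the 46 genes in the shorter list, cut by how well peak ranks repeat between replicates. The longer list of pooled candidates gave 44 of 46.

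The material was whole embryos of mixed sex, aged 0 to 24 h, from the strain luna-MiMIC-GFP, in which an eGFP exon inserted into an intron of luna makes a luna-GFP fusion from the gene. Sonicated chromatin was precipitated with an antibody against GFP and sequenced, as 2 biological replicates of this 1 group. There is no second condition, and the control experiment that the labels name was not analysed here. Since whole embryos mix all cell types and stages of that day, a summit may come from many cells or few.

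The large subunit holds the catalytic centre that joins amino acids, the tunnel through which the new chain leaves, and a flexible stalk that recruits the GTPases of translation. Its protein genes are among the most highly transcribed in growing cells, and in Drosophila losing 1 copy of many of them gives the Minute phenotype of slow development and short, thin bristles. Many ribosomal protein promoters of flies start transcription at a polypyrimidine initiator, called the TCT initiator, in place of the usual initiator. The gene luna encodes a zinc finger factor of the KLF family, whose members in many animals bind C-rich sequence with a CACCC-like core.

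Promoter sequence of 4 genes shows the range of the data: RpL32 with the strongest peak, RpL28 and RpLP1 with peaks and different elements, and RpL21 with no candidate in any list. Each runs from 110 bases before to 15 bases from the canonical TSS, 5′ to 3′ on the strand of the gene, in the RefSeq copy of the Release 6 assembly (dm6). Capitals mark the letters CGATA on either strand (TATCG when read from the other strand, and TATCGATA where both overlap), the longer Motif 1 letters GGTCACACT, and TCT initiators scored at the canonical TSS. RpL32 is at chr3R:30046126-30046250 (minus), RpL28 at chr3L:3222944-3223068 (minus), RpLP1 at chr2L:419842-419966 (plus) and RpL21 at chr2L:22247819-22247943 (minus).
RpL32: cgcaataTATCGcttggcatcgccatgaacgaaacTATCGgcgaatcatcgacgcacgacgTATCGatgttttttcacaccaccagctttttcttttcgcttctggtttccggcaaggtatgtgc
RpL28: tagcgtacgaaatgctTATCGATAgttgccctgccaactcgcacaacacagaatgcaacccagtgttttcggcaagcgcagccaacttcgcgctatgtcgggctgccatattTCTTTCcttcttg
RpLP1: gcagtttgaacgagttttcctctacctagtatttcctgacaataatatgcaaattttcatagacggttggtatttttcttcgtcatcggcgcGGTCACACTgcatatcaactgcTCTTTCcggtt
RpL21: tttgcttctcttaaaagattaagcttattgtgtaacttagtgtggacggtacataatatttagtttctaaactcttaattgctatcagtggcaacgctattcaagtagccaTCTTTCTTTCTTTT

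RpL32 carries 3 copies of CGATA in the stretch shown, and its summit, at chr3R:30046279, lies upstream of that stretch. The TCT initiator of RpL32 is at another of its annotated TSSs, so it is not in capitals. RpL28 and RpLP1 have a TCT initiator 4 and 6 bases into the transcript from the canonical TSS. RpL21 has overlapping TCT initiators, the first at base 3, yet no summit.

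A promoter peak in the shorter list was found at most large subunit genes. In the list of 1696 peaks kept by the irreproducible discovery rate (IDR), a threshold on how well peak ranks repeat between replicates, 34 of the 46 genes had a promoter summit (73.9%, Wilson 95% interval 59.7 to 84.4), against 10.7% of all protein-coding genes. In the pooled candidates the count was 44 (95.7%, against 45.9%). The candidate list of replicate 1 gave 45 (against 47.1%) and that of replicate 2 gave 44 (against 51.9%), while 44 genes had a summit in both (against 36.7%). These long lists of 21725 pooled and 30000 candidates per replicate reach a large share of all promoters, so their near-complete counts separate the large subunit genes less from the rest than the IDR count does. No test was run on these shares, since the genes were chosen with results of these data known. The intervals take in counting error alone.

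The signal value of a peak is the authors' own score, and its scale is not stated. It is used here mainly to order and describe peaks within a list. Values set side by side across lists may be on different scales. The IDR list consists of the 1696 strongest pooled candidates, with signals from 46.4 to 689. An IDR peak is thus a strong pooled peak and need not rank high in each replicate. In 4 equal bins of that list, of 424 peaks each from the strongest down, 20, 9, 4 and 1 of the 34 genes had their best peak. The strongest 424 peaks thus held 20 of the 46 genes (43.5%), against 2.88% of all protein-coding genes. The median signal of the best promoter IDR peak was 94.5 over the 34 genes and 67.4 over all 1493 protein-coding genes with one. None of the 34 reached the top of the list, the highest being RpL32 at rank 62.

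**Figure D1:**
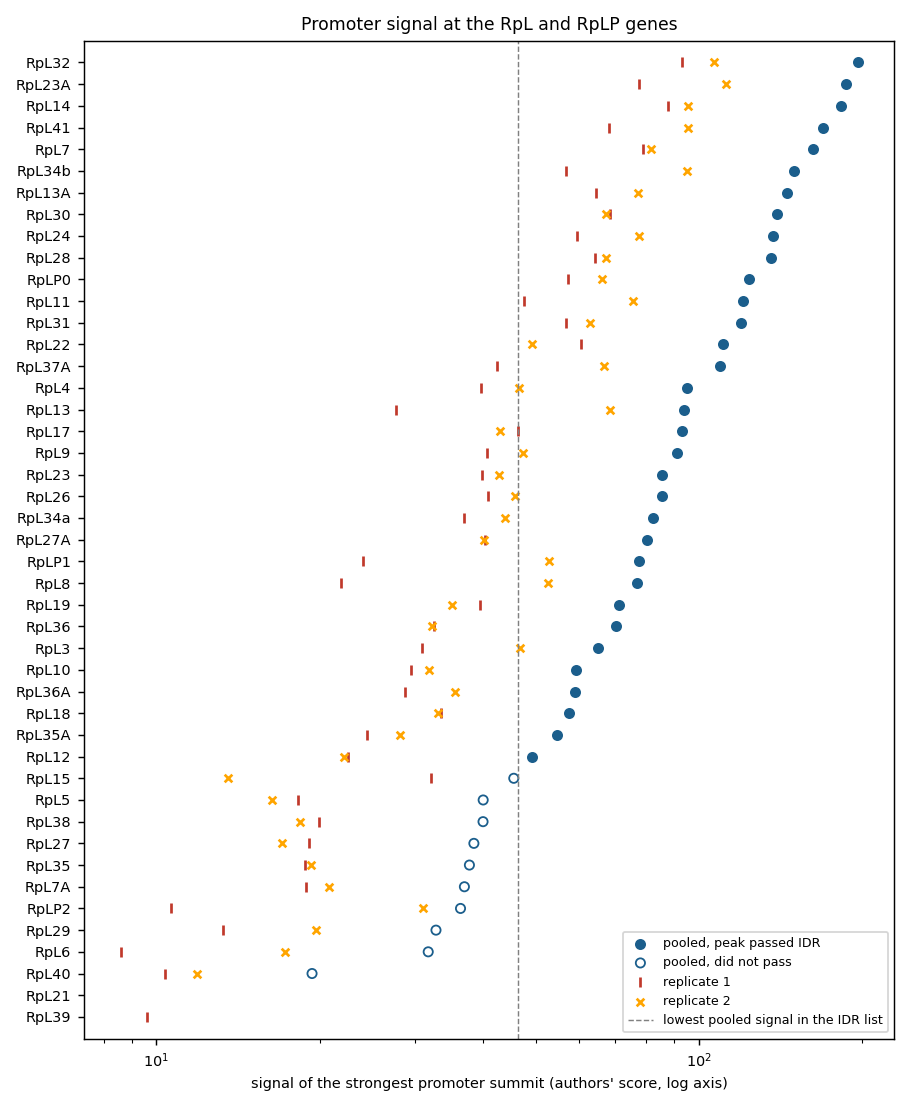
Signal of the strongest promoter summit (authors' score, log axis) for 45 of the large subunit genes in the pooled list and in each replicate list, ordered by pooled signal. Filled circles are the 33 genes drawn that have an IDR peak, open circles those without, and the dashed line is the lowest pooled signal in the IDR list, 46.4. Replicate scores are lower than pooled scores throughout, and RpL21 has no point.

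The stalk and its base were not alike. RpLP0, the scaffold of the acidic stalk, had a pooled signal of 124 at rank 185, with 57.4 in replicate 1 and 66.1 in replicate 2, and its summit fell exactly on a TSS. RpLP1, which binds that scaffold as a dimer with RpLP2, had 77.5 at rank 562, with the summit 9 bp downstream. The replicates placed RpLP1 at rank 1387 and 344. RpLP2 had a weaker pooled candidate of 36.3 at rank 2841, 20 bp upstream, and did not reach the IDR list. In replicate 1 its strongest candidate ranked 11975 and lay 195 bp downstream, while in replicate 2 a candidate 19 bp upstream ranked 1264. RpL12, the protein of the stalk base on the ribosomal RNA, had the lowest signal of the 34, 49.2 at rank 1494.

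The strongest peaks were at RpL32, known to fly geneticists as the reference transcript rp49, RpL23A, at the exit of the peptide tunnel, and RpL14. RpL32 had signals of 196 in the pooled list, 93.0 in replicate 1 and 107 in replicate 2, with ranks of 62, 61 and 58. RpL23A had 187 pooled, 77.6 in replicate 1 and 112 in replicate 2, at ranks 67, 93 and 52. RpL14, which is mutated in a Minute strain, had 183, 87.5 and 95.3, at ranks 75, 68 and 75. None of these ranked below 93 in any list. RpL41, encoding the smallest ribosomal protein, followed with 169.6 pooled, 68.3 in replicate 1 and 95.6 in replicate 2. RpL7 had 162 pooled, 78.7 in replicate 1 and 81.7 in replicate 2. RpL34b had 149.7 pooled, 56.9 in replicate 1 and 95.2 in replicate 2. Its rank differed more than that of RpL7 between the replicates, at 216 and 76.

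The remaining genes of the strongest 12 spanned pooled signals from 146 to 120.4. RpL13A had 64.7 in replicate 1 and 77.0 in replicate 2, and RpL30 had 68.4 and 67.4. RpL24, which sits at the interface with the small subunit, had 59.7 and 77.4, and RpL28 had 64.4 and 67.4. RpL11, which enters the ribosome with RpL5 and the 5S rRNA, had 47.6 and 75.5. In this group, RpL30 alone was higher in replicate 1 than in replicate 2, on scales set separately for each list.

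Genes of the peptide tunnel and its exit covered the full range. Beside RpL23A at 187, RpL31 had a pooled signal of 119, RpL4 95.0, RpL17 92.9 and RpL26 85.4, all in the IDR list. RpL35, also at the exit, stayed below it with 37.7 at rank 2619. RpL39, a small protein inside the tunnel, had no pooled candidate within 500 bp. Genes of the catalytic centre lay in the middle and lower ranks, with 76.7 for RpL8, 65.0 for RpL3 and 59.4 for RpL10. The 5S pair was split, as RpL11 had 120.4 and RpL5 had 40.0 at rank 2309, outside the IDR list. These groups follow textbook roles, were assembled after the values were seen and were not tested.

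Other genes in the IDR list included RpL22, RpL37A, RpL13, RpL9, RpL23, RpL34a, RpL27A, RpL19, RpL36, RpL36A, RpL18 and RpL35A. Their pooled signals ran from 111 at RpL22, whose fly protein has a long extra domain resembling histone H1, to 54.7 at RpL35A. RpL18 is the single gene with 2 IDR peaks at its promoter. The stronger had a signal of 57.7 and lay 22 bp upstream, and the weaker, 48.1 at rank 1568, lay 327 bp upstream, beyond the TSS of the divergent gene Neos, which starts 277 bp away. The 34 genes thus rested on 35 distinct peaks.

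At the IDR threshold, RpL12 at rank 1494 was the last gene inside and RpL15 at rank 1773 the first outside. RpL15 had a pooled signal of 45.6, with 32.1 in replicate 1 and 13.6 in replicate 2. It ranked 771 in replicate 1, above many IDR genes, and 8678 in replicate 2. RpL12 showed a smaller gap, with ranks of 1583 and 2717. RpL12, RpL15 and RpLP2 were the genes whose replicates fell on different sides of rank 1696, so for these 3 the call depends on the replicate used.

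12 genes had no IDR peak. After RpL15, the pooled signals were 40.0 at both RpL5 and RpL38, 38.5 at RpL27, 37.7 at RpL35, 36.9 at RpL7A, 36.3 at RpLP2, 32.7 at RpL29 and 31.7 at RpL6. RpL40, which encodes a fusion of ubiquitin with a ribosomal protein, had 19.4 at rank 12563, 210 bp downstream. RpL39 had a candidate in replicate 1 alone, with a score of 9.61 at rank 15781 and 52 bp upstream, and its nearest pooled candidate was 629 bp away. RpL21 had none in any list, and the nearest pooled candidate was 7227 bp from a TSS.

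The replicates gave similar orders of the genes. Over the 44 genes with a candidate in both, Spearman's rho between replicate signals was 0.83, a description across genes that share both libraries. Of the 46 genes, 33 were among the strongest 1696 candidates in both replicates, against 7.04% of all protein-coding genes. Replicate 1 alone gave 35 (against 10.4%) and replicate 2 alone 34 (against 10.5%). Over the 34 IDR genes, the log2 ratio of replicate 2 to replicate 1 signal had a median of 0.20 (SD 0.42). Over 1487 genes the median was 0.22 (SD 0.57), and the scales of both lists may differ. At the 34 IDR genes the ratio ran from -0.30 at RpL22 to 1.31 at RpL13. RpL13 had 27.7 in replicate 1 and 68.5 in replicate 2. RpL8 also ranked much higher in replicate 2, at 349 against 1693. The range leaves out genes without an IDR peak. Among those, RpL15 had 32.1 in replicate 1 and 13.6 in replicate 2, and RpLP2 had 10.6 and 30.9. The summits of both replicates lay a median of 18 bp apart, and 26 of the 34 pairs were within 50 bp. The widest gap, 293 bp, was at RpL18, where the only replicate 2 candidate lay 313 bp upstream, beyond the start of Neos. Its stronger IDR peak, 22 bp upstream, thus had a nearby candidate in replicate 1 alone. RpL18 counts as strong in both replicates through different summits.

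**Figure D2:**
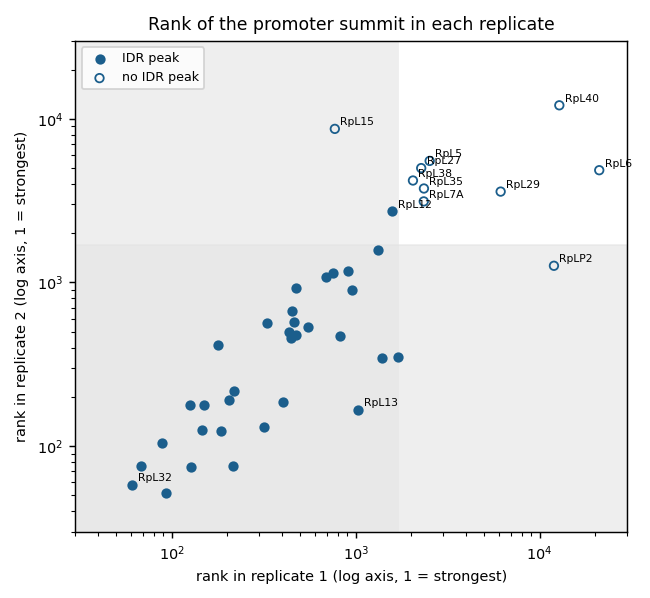
Rank of the strongest promoter summit in replicate 1 (x) and replicate 2 (y), both on log axes where 1 is the strongest, for 43 of the genes with a candidate in both. Shading marks ranks up to 1696. Of the 33 filled IDR genes, 32 lie where both shaded bands cross, while RpL12, RpL15 and RpLP2 are inside 1 band only.

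Summits sat close to the nearest annotated TSS of the gene and mostly just before it. That TSS need not be the canonical one, since 24 of the 46 genes have more than 1. Of the 34 genes, 27 had the IDR summit upstream of the nearest TSS, 6 downstream and 1, RpLP0, on it. Relative to the canonical TSS, the RpLP0 summit lies downstream and those of RpL26 and RpL36 lie upstream. The median position was -23.5 bp (negative is upstream), beside -109 bp over all 1493 protein-coding genes with a promoter IDR peak. A summit within 100 bp of the TSS was found at 29 of the 34 (85.3%), against 42.0% of those genes, while the upstream share was 79.4% against 86.4%. The summit farthest downstream of its nearest TSS was in the first part of RpL26. RpL32 at 118 bp, RpL23A at 110 bp and RpL23 at 119 bp lay well upstream. By annotation 24 of the summits were between genes, 7 in a 5′ UTR, 2 in an intron and 1 in an exon of a non-coding antisense RNA, at RpL37A. The shares over all promoter IDR peaks are not given, so these counts only describe the 34 genes. Of the 34 peaks, 32 had the same width of 376 bp, so width carries no information here. These summits are finer than the sonicated fragments of 200 to 800 bp, which limits the precision of their positions.

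A neighbouring gene shared some of the promoters. 19 of the 46 genes had a divergent coding partner, a protein-coding gene on the opposite strand that starts at most 500 bp upstream. Over all protein-coding genes, 3815 of 13945 had one. At the 19 large subunit genes the gaps ran from 30 to 479 bp, with a median of 269 bp. 18 of these 19 (94.7%) had an IDR peak, and 16 of the 27 without a partner (59.3%) did. Over all protein-coding genes the shares were 22.3% of 3815 with a partner and 6.34% of 10130 without. Over the 37 RpS genes, which encode the small subunit, they were 57.1% of 14 and 52.2% of 23. The IDR signal had a median of 113 over the 18 and 88.3 over the 16. The split was chosen after the values were seen and was not tested, and a summit between both starts cannot be assigned to 1 of the genes.

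Among the 12 strongest genes, 8 had such a partner, as did 18 of the 34 genes with an IDR peak. Over all protein-coding genes, 851 of the 1493 with a promoter IDR peak had one, and these shares were not tested. RpL32 shares its summit with CG7943, 191 bp from the start of that gene and 118 bp from its own. RpL14 shares with Nelf-E, which encodes a subunit of the pausing factor NELF, and there the partner's TSS was nearer, at 59 bp against 68 bp. RpL7 and Ripalpha start 30 bp apart, the closest pair. RpL41 pairs with the sodium channel gene NaCP60E, RpL34b with CG8132, RpL28 with eIF1, a translation initiation factor gene, and RpLP0 with CG7130. RpL13A has both Dph4 and Spec2 within reach, and RpLP1 is paired with CG13690. RpL13 faces Dref at a gap of 84 bp, and Dref encodes the factor that binds the DRE sequence described below. RpL29, paired with Sgf29, was the partnered gene without an IDR peak. In all, 19 IDR genes had another coding TSS within 500 bp of the summit, and in 17 of them the summit was nearer to the large subunit gene. The same counts over all protein-coding genes are not given, so these only describe the large subunit genes.

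**Figure D3:**
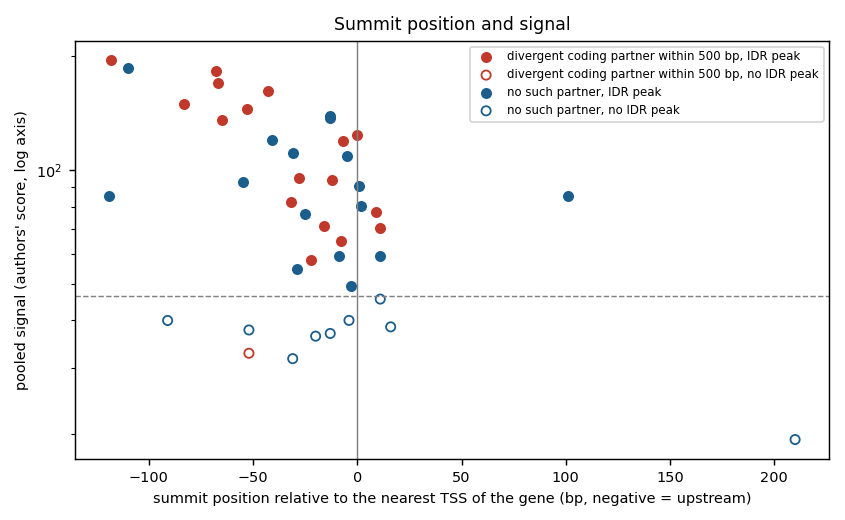
Position of the strongest pooled promoter summit relative to the nearest TSS of the gene (bp, negative is upstream) against its signal (authors' score, log axis), for 43 genes. Red points have a divergent coding partner within 500 bp and blue points do not, open points have no IDR peak, and the dashed line is the lowest signal in the IDR list. All but 1 of the red points lie above that line.

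The paralogs RpL34a and RpL34b differed in strength. RpL34b had 149.7 at rank 108 and RpL34a 82.2 at rank 479, both with a partner upstream. Their promoters are shown with the same window, strand rule, build and capitals as above, because they encode copies of the same protein from different starts. RpL34a is at chr3R:26059253-26059377 (minus) and RpL34b at chr3R:9401188-9401312 (minus).
RpL34a: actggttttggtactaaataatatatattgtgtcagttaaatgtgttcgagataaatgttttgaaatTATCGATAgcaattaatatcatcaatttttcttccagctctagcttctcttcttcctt
RpL34b: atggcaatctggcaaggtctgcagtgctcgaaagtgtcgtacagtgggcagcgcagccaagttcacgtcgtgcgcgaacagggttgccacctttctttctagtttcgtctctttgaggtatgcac

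RpL34a holds the DRE letters TATCGATA, and RpL34b holds neither CGATA nor Motif 1 in this window. RpL34b has a TCT initiator at another of its annotated TSSs, left in lower case here, and RpL34a has none at any of its TSSs. Other pairs that share a number, such as RpL7 and RpL7A or RpL13 and RpL13A, encode unrelated proteins.

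Sequence elements were counted by letters on both strands, in 200 bases of each promoter ending 25 bases into the transcript. CGATA, the core bound by BEAF-32 and contained in the DRE, was in 31 of 46 large subunit promoters (67.4%), against 38.9% of all protein-coding promoters. The full DRE letters TATCGATA, bound by Dref, were in 9 (19.6%, against 7.76%), each of which also counts under CGATA. Motif 1, GGTCACACT, was in 4 (8.70%, against 4.75%). Ohler 7, a degenerate core promoter motif, was in 8 (17.4%, against 14.9%). The KLF core, CAC followed by A or G and then CCC, was in 0 of 46, against 2.19% of all promoters. The shorter letters CACCC were not counted. Some of the promoters hold them, for example RpL23A and RpL26 in the IDR list and RpL35 outside it. GAGAG, the letters of the GAGA element, were in 3 (6.52%, against 23.0%), the E-box CAGCTG in 0 (against 13.5%), and the GC box GGGCGG in 3 (6.52%, against 4.07%).

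The start sites shared an initiator. A TCT initiator, which is C or T, then CTTT, then C or T, had its C within 10 bp of the canonical TSS in 30 of the 46 genes (65.2%), against 2.88% of all protein-coding genes and 56.8% of RpS genes. When every annotated TSS of a gene was scored, a choice made after the sequences were seen, the counts were 42 of 46 (91.3%), against 4.09% of all genes and 78.4% of RpS genes. The 4 genes without it were then RpL12, RpL17, RpL26 and RpL34a. The usual initiator letters TCAGT or TCATT were found in 2 (4.35%, against 18.4%) and a TATAAA box 15 to 45 bp upstream in 1 (2.17%, against 9.27%). With every TSS scored, 30 of the 42 genes with a TCT initiator had an IDR peak (71.4%), as did all 4 without it. At canonical TSSs, 66.7% of the 30 genes with it and 87.5% of the 16 without it had a peak. The order was the other way among RpS genes, at 66.7% with and 37.5% without, and among all protein-coding genes, at 20.4% and 10.4%, and these differences were not tested. Of the 31 promoters with CGATA, 23 had an IDR peak (74.2%), beside 11 of the 15 without it (73.3%). The shares were 65.2% and 35.7% for RpS genes and 13.2% and 9.14% for all protein-coding genes. A match is a description of letters, and a missing match says only that those letters are not in the window.

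At the summits the pattern was similar. In windows reaching 100 bp to each side of the 34 IDR summits, 23 held CGATA (67.6%), against 44.6% of 1082 windows at the coding promoter peaks of the IDR list. In windows reaching 50 bp to each side, 14 held it (41.2%), against 29.7%. The DRE was in 7 (20.6%, against 10.6%) and Motif 1 in 5 (14.7%, against 3.05%), at RpL7, RpLP0, RpL37A, RpL27A and RpLP1. Ohler 7 was in 9 (26.5%, against 27.0%). The KLF core was in 0, against 2.59%, the E-box in 0, against 13.2%, and the GAGA letters in 2 (5.88%, against 22.3%). The background windows include those of the large subunit genes. With 34 windows and a background of 2.59%, a count of 0 for the KLF core does not separate the genes from that background. GC content had a median of 42.8% in the 34 windows and 37.8% in the background, which bears on how often any letters occur.

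**Figure D4:**
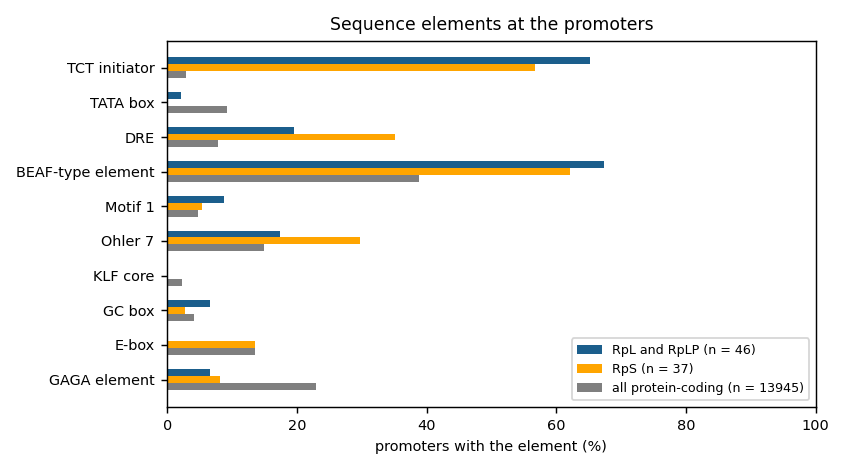
Share of promoters with each element (%), for 46 large subunit genes, 37 RpS genes and all 13945 protein-coding genes. The initiator and TATA box were scored at the canonical TSS and the others in the promoter window, and the bar named BEAF-type element is CGATA. Scored so, the TCT initiator reaches 65.2% in the large subunit genes against 2.88% of all genes, and the KLF core is at 0 in both ribosomal lists.

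Other translation genes give the setting, without a test of any difference. Of 37 RpS genes, 20 had a promoter IDR peak (54.1%, interval 38.4 to 69.0) with a median signal of 66.9, and 7 (18.9%) were among the strongest 424 peaks. The strongest of them, RpS27, had 235, above every large subunit gene. Of 73 mitochondrial ribosomal protein genes, which serve a separate ribosome, 12 had a peak (16.4%, interval 9.66 to 26.6). Of 7 elongation factor genes 4 had one, led by eEF1gamma at 139. Of 18 genes listed under ribosome assembly 5 had one, led by eIF6, which keeps the large subunit from joining too early, at 231. That list was drawn up by symbol and the roles were not checked. It takes in bor and Rack1, which had a peak of 60.2. Summits of the RpS genes had a median position of -21.0 bp and those of the mitochondrial genes -129.5 bp.

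**Figure D5:**
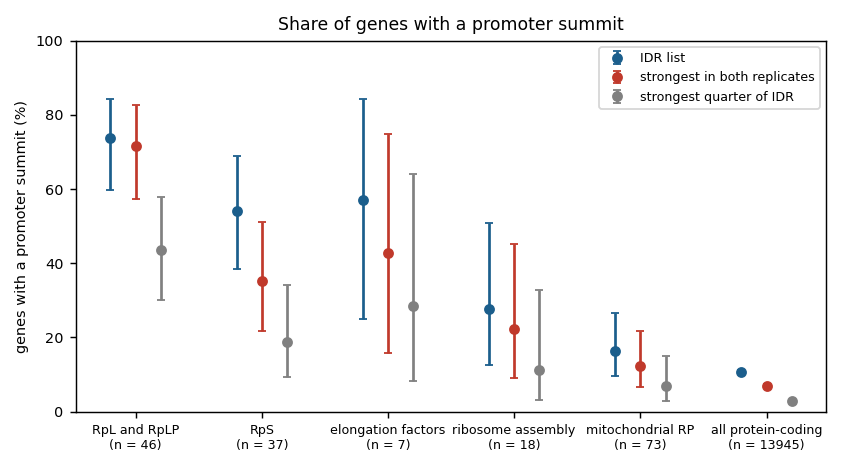
Share of genes with a promoter summit (%, with Wilson 95% intervals for counting error) in the IDR list, among the strongest 1696 candidates of both replicates, and among the strongest 424 peaks of the IDR list. The large subunit genes lie at 73.9%, 71.7% and 43.5%, the RpS genes at 54.1%, 35.1% and 18.9%, and all protein-coding genes at 10.7%, 7.04% and 2.88%.

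8 other genes with RpL or RpLP names fell outside the naming rule. Of these, 3 had an IDR peak: RpLP0-like with a signal of 98.3, RpL37-1 with 59.9 and RpL10Ab with 53.3. Their partners in name, RpL37-2 and RpL10Aa, had no candidate in any list. RpL7-like, RpL22-like and RpL24-like had pooled candidates of 28.0, 15.8 and 19.6, beside 162 for RpL7, 111 for RpL22 and 137 for RpL24. They are set together by name alone, and whether they encode related proteins was not examined. By chromosome arm, the genes with an IDR peak were 9 of 12 on 2L, 7 of 11 on 2R, 8 of 9 on 3L, 7 of 9 on 3R and 3 of 5 on X. The share over all protein-coding genes of each arm is not given, so these counts only locate the genes and compare no arms.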

How the data were processed

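Peaks of a luna-GFP chromatin immunoprecipitation in 2 biological replicates were taken as deposited, in build dm6. Per the deposited README texts, replicate candidates came from an alignment and a control file, the pooled list from both alignments, and the IDR list from these lists. The authors deposited a signal score for each peak, used to rank and describe peaks within a list and, between replicates, as a log2 ratio. No source used here gives the aligner, the peak caller or the IDR threshold, and depth is unknown. The dm3 lists were not used.

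Genes and TSSs came from Ensembl release 115, whose coordinates are those of dm6, and sequence from RefSeq. Summits were assigned to every gene with a TSS within 500 bp, so 1 summit can count for several genes. Elements in promoter and summit windows were searched on both strands, and the initiators and the TATA box on the strand of the gene alone. Summit assignment and the search on both strands were tested on simulated data, while the initiator and TATA box searches were not. Python 3.11.15, pandas 2.3.3, numpy 2.4.6, statsmodels 0.14.6 and matplotlib 3.10.9 were used. No test was run. Genes are not replicates, and intervals are Wilson 95% intervals.

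The genes and lists were chosen with earlier results of these data known. Genes named with full values are the 12 strongest, the stalk genes, those within 300 ranks of the IDR threshold, those without pooled candidates, those whose replicates disagree, paralogs and genes sharing a named summit. Others are named by role or group, chosen after their values were seen. Of 35 listed symbols of elongation and assembly genes and other RpL-named genes, 2 did not match the annotation. 1 gene that enters the counts is not reported here by itself and is not drawn in the plots of single genes.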

Additional observations from a re-analysis of the deposited data

How the results depend on the processing

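Of 54 recomputed values, 48 stayed within 1.5 times the count or within the spread between replicates, 6 moved and 0 changed sign. The count of genes with a promoter IDR peak was 34 with windows of 250 and 1000 bp and with the TSS inside the peak, and 29 with the stronger 848 of its 1696 peaks alone. Leaving out either replicate, with the strongest 1696 candidates of the other in place of the IDR list, gave 34 to 35. The median signal of 94.5 became 109 in those 848 peaks, by construction, and 40.6 to 52.8 without a replicate, on single-replicate scales. The median position of -23.5 bp became -36 to -29.5 bp without a replicate, and the cause was not tested. Summit windows with CGATA fell to 14 of 34 when shortened to reach 50 bp to each side, since less sequence is searched. Genes with a TCT initiator went from 30 to 42 when every TSS was scored, chosen after seeing the data. The KLF core stayed at 0 in each alternative run. No paired analysis was possible because there is only 1 group. Unknown depth, the control not analysed here and the mix of cell types limit what a weak or missing peak can show.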

Other observations

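Reading the large subunit promoters brought up short letters that recur, and these were then counted on both strands in the same 200 bases of every gene. The letters were chosen after the large subunit sequences were read, so their counts there are descriptions, whereas the RpS promoters had not been read. TTCCG was in 29 of 46 large subunit promoters (63.0%) and 15 of 37 RpS promoters (40.5%), against 24.9% of all protein-coding promoters. CACACT, which is also the end of Motif 1, was in 17 (37.0%) and 11 (29.7%), against 15.8%. AACAGCAC was in 6 (13.0%) and 2 (5.41%), against 1.13%, and GGTATTTT in 7 (15.2%) and 5 (13.5%), against 4.02%. CACACC, which shares most of the KLF core, was in 7 (15.2%) and 2 (5.41%), against 7.17%. TTCCG was in 21 of the 34 genes with an IDR peak and in 8 of the 12 without, and CACACT in 12 and 5. None of these was tested.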
